A study of Gloeophyllum trabeum with 9 samples.

Results

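*Gloeophyllum trabeum* is a brown rot fungus, one of the wood decomposers that remove cellulose and hemicellulose from softwood and leave most of the lignin behind. The genes described here are the 9 genes of the AA3_2 family that the study lists among the oxidases related to hydrogen peroxide production, out of 11846 gene models with values. By protein ID they are 82487, 89774, 109397, 139690, 130589, 63039, 70090, 120265 and 80540, written below with the prefix Glotr_ of the gene models. Strain NBRC6430 was grown with Japanese cedar or cellulose for 5 days, or with glucose for 3 days, as the only carbon source, and mRNA from the mycelium of 3 cultures on each was sequenced. Cedar and cellulose were both supplied as fibrillated material in shaken liquid medium, so the cultures are a model of a fungus in suspension and not of one growing through solid wood. The cultures carried no mutation and no other treatment. Since the glucose cultures were harvested earlier, the carbon source and the age of the culture cannot be told apart in any comparison with glucose. The reads were assigned to gene models of the genome of another strain of the fungus.

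AA3_2 enzymes belong to the glucose-methanol-choline (GMC) oxidoreductases, flavoproteins that bind FAD and take electrons from an alcohol or a sugar. Members known from other fungi include aryl-alcohol oxidase and glucose oxidase, which pass the electrons to oxygen and release hydrogen peroxide, and dehydrogenases, which pass them to quinones or other acceptors. In brown rot, hydrogen peroxide reacts with ferrous iron in the Fenton reaction and gives hydroxyl radicals that attack the cell wall. The annotation used here gives only the family for each of the 9 genes, so whether a gene encodes an oxidase or a dehydrogenase, and its substrate, are not given in the sources used here.

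Transcript levels are given as normalized TPM, a measure of transcript abundance corrected for transcript length and rescaled between libraries by the authors. The deposited values sum to between 678148 and 1680448 TPM in a library, with means of 835679 ± 108964 on cedar, 1642271 ± 58748 on cellulose and 734489 ± 49504 on glucose (SD, n = 3 each). The 10 most abundant gene models took between 34.5% and 65.0% of a library. No read counts come with the values, so the depth behind a single gene is unknown, and the SD given is the spread between the 3 libraries. Carbon sources were compared with limma's moderated test on log2(TPM + 0.5). Log2 fold changes, with their standard error (SE), are on that scale, which understates the change of genes near 1 TPM. The SE combines the spread between the libraries of a gene with a variance estimated over all gene models tested. Calls needed an adjusted p (Benjamini-Hochberg, over all gene models tested) under 0.01 and, between the mean TPM, a ratio of 2 or more for upregulation or of 0.5 or less for downregulation. All 9 genes passed the filter on low values in each comparison.

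Against glucose, 7 of the 9 genes were upregulated on cedar and 1 was downregulated, where the shares of all 10555 gene models tested were 15.2% and 15.7%. On cellulose 7 of the 9 were upregulated and none downregulated by limma, where the shares of 10501 were 10.4% and 13.9%. At an unadjusted p under 0.05 the numbers there were 8 higher and 0 lower. The share of all gene models at that threshold was not computed, so these numbers have no background beside them. At the stricter threshold of an adjusted p under 0.01, 32.5% of all gene models passed, higher and lower together. The study placed these genes on its list because it had called them upregulated on at least 1 substrate in these same libraries, so none of these counts is independent evidence of their direction. Glotr_82487, Glotr_89774, Glotr_109397, Glotr_139690 and Glotr_130589 were called on both substrates. Glotr_63039 and Glotr_70090 were called upregulated on cedar and not on cellulose, and Glotr_120265 and Glotr_80540 on cellulose and not on cedar. The cedar and cellulose comparisons share the glucose libraries. The median log2 fold change of the 9 genes was 1.73 on cedar and 1.37 on cellulose, beside 0.04 and -0.09 over all gene models tested. All 3 cedar libraries lay outside the range of the glucose libraries in 9 of 9 genes, as in 71.4% of all gene models, and all 3 cellulose libraries in 8 of 9, as in 62.7%.

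**Figure D1:**
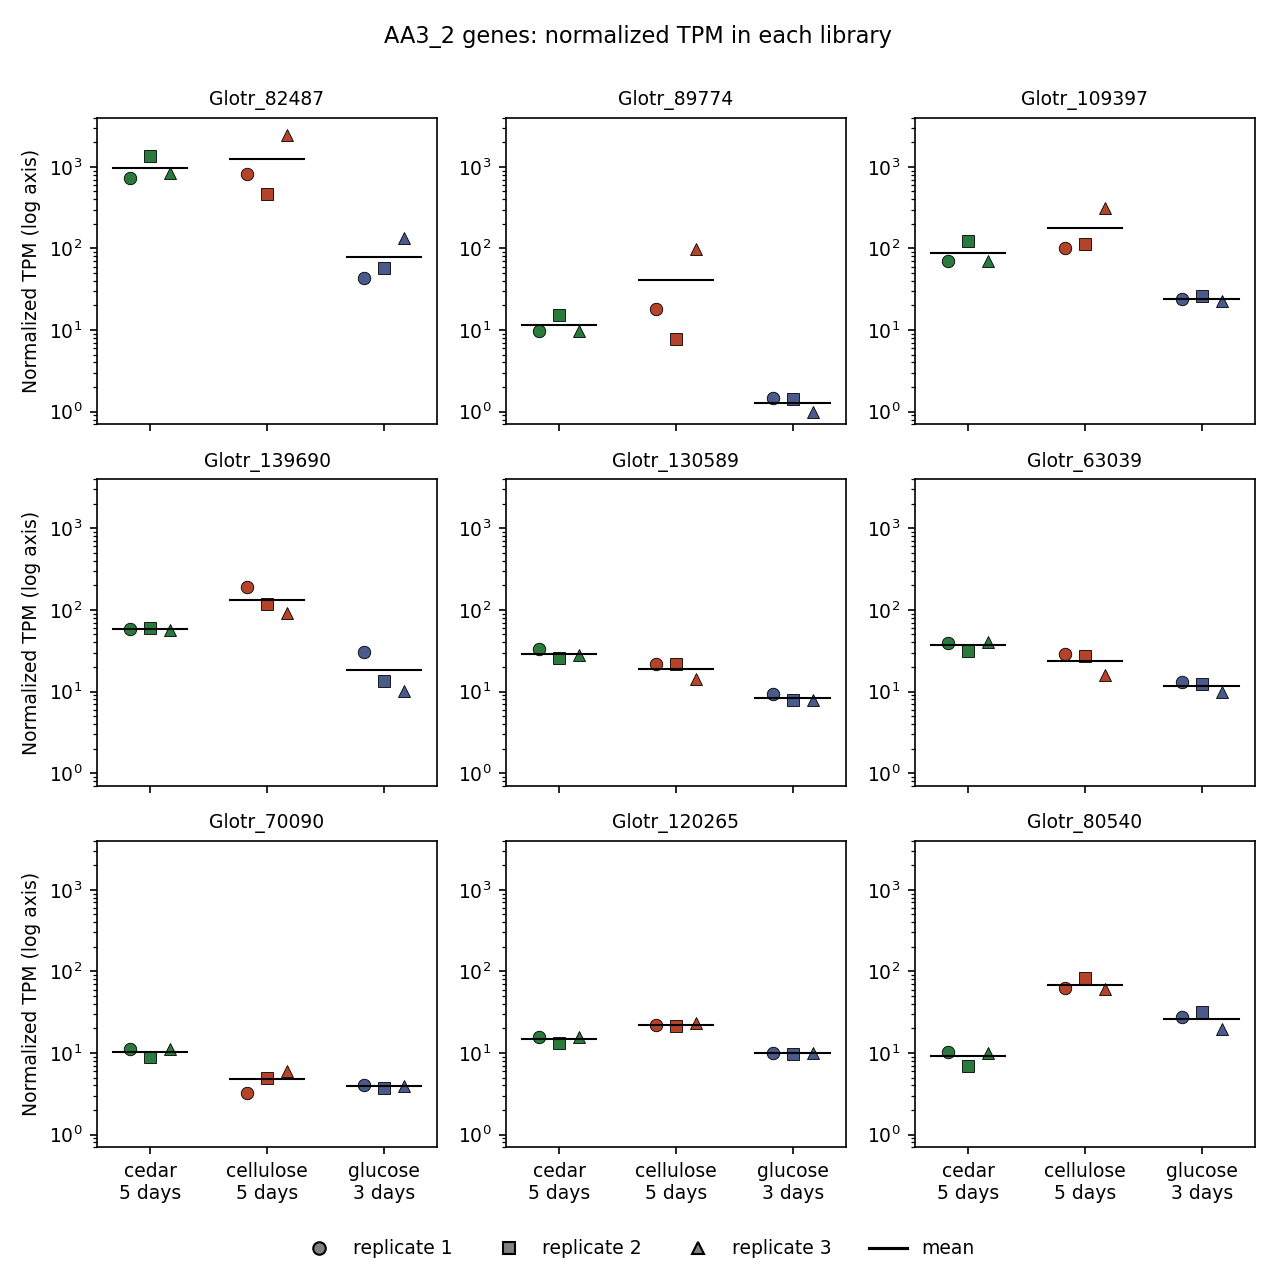
Normalized TPM (log axis) of the 9 AA3_2 genes in each library, with 1 panel for each gene, cedar, cellulose and glucose from left to right, the 3 replicates as circle, square and triangle, and their mean as a line. Glotr_82487 lies above the other genes on every carbon source, and Glotr_80540 is the gene whose cedar libraries lie below its glucose libraries.

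Glotr_82487 was the most abundant of the 9 genes on every carbon source. It had 740.4, 1347 and 831 TPM on cedar, 821, 461 and 2479 TPM on cellulose, and 42.9, 57.8 and 135 TPM on glucose. Every cedar and cellulose library was above every glucose library, while the cellulose libraries spread over a 5.38-fold range that enclosed all cedar libraries. Its mean was 973 ± 327 TPM on cedar, 1254 ± 1076 on cellulose and 78.7 ± 49.7 on glucose (SD, n = 3 each), which placed it at percentiles 99.4 to 99.8 of all gene models on cedar, 98.1 to 99.7 on cellulose and 85 to 95 on glucose. The log2 fold change was 3.75 (SE 0.436, adjusted p = 0.000299) on cedar and 3.81 (SE 0.679, adjusted p = 0.00392) on cellulose. The call on cedar held in all 6 fits that left out 1 library. On cellulose it was lost without glucose replicate 1 (3.46), glucose replicate 2 (3.67) or cellulose replicate 1 (3.93), and its adjusted p lay between 0.000839 and 0.0178 in the alternatives run.

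Glotr_89774 was the least abundant of the 9 on glucose and had the largest ratio on cellulose among them. It had 9.76, 15.4 and 9.65 TPM on cedar, 18.4, 7.74 and 98.5 TPM on cellulose, and 1.45, 1.41 and 1.0 TPM on glucose. No library on cedar or cellulose overlapped the glucose libraries, but the highest cellulose library was 12.7 times the lowest. Its standard deviation of log2 values on cellulose was above that of 99.5% of gene models. The ratio of means was 9.04 on cedar and 32.3 on cellulose. Without cellulose replicate 3 the log2 fold change of 3.81 (SE 0.825, adjusted p = 0.00867) on cellulose was 2.81. There the call was lost without glucose replicate 1 (3.88), glucose replicate 2 (3.86), glucose replicate 3 (3.69) or cellulose replicate 1 (4.01), and the adjusted p ran from 0.000928 to 0.0314 over all alternatives. On cedar the log2 fold change was 2.74 (SE 0.207, adjusted p = 3.96e-05), and the call held whichever library was left out but not with all 3 carbon sources in 1 fit (adjusted p = 0.0111).

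Glotr_109397 was the second most abundant of the 9 on cedar and on cellulose. It had 70.0, 122 and 70.0 TPM on cedar, 102, 113 and 315 TPM on cellulose, and 24.2, 25.9 and 22.8 TPM on glucose. The glucose libraries lay close together and below all others. Its ratio was 3.60 on cedar, with a log2 fold change of 1.78 (SE 0.221, adjusted p = 0.000412), and 7.28 on cellulose, with 2.64 (SE 0.414, adjusted p = 0.00229). The call on cellulose was lost without glucose replicate 1 (2.64), glucose replicate 2 (2.69) or glucose replicate 3 (2.59), where the adjusted p was 0.0113, 0.0102 and 0.0108.

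Glotr_139690 had 58.3, 60.0 and 56.2 TPM on cedar, 189, 117 and 92.6 TPM on cellulose, and 30.6, 13.5 and 10.1 TPM on glucose. The cedar libraries were almost level, at a coefficient of variation of 3.28%, and lay between the cellulose and the glucose libraries without overlap. Its log2 fold change on cellulose was 2.94 (SE 0.439, adjusted p = 0.00188), and this was the only one of the 9 genes whose call on cellulose held in every alternative run. On cedar it was 1.81 (SE 0.362, adjusted p = 0.00386), and the call was lost without glucose replicate 2 (1.69), cedar replicate 1 (1.81), cedar replicate 2 (1.79) or cedar replicate 3 (1.84). It was also lost without a filter on low values, which gave the highest adjusted p on cedar, 0.0175.

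Glotr_130589 and Glotr_63039 had the same order of carbon sources, with cedar highest and glucose lowest. Glotr_130589 had 32.9, 25.7 and 28.2 TPM on cedar, 21.8, 21.5 and 14.2 TPM on cellulose, and 9.29, 7.77 and 7.93 TPM on glucose. Glotr_63039 had 39.3, 31.0 and 40.9 TPM on cedar, 28.6, 27.4 and 15.8 TPM on cellulose, and 13.0, 12.3 and 9.84 TPM on glucose. In neither gene did any pair of carbon sources overlap. On cedar both calls held in every fit that left out 1 library, with a log2 fold change of 1.73 (SE 0.125, adjusted p = 3.18e-05) for Glotr_130589 and 1.62 (SE 0.151, adjusted p = 0.000103) for Glotr_63039. On cellulose Glotr_130589 had 1.13 (SE 0.193, adjusted p = 0.00323), a call that was lost whenever a library other than cellulose replicate 3 was left out, with values between 1.03 and 1.21 and adjusted p between 0.0109 and 0.0174. Glotr_63039 had a ratio of 2.04 on cellulose and a log2 fold change of 0.96 that missed the threshold (adjusted p = 0.0172), and without cellulose replicate 3 it was upregulated there, with 1.23 (adjusted p = 0.000804).

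Glotr_70090 differed from glucose on cedar but not past the thresholds on cellulose. It had 11.3, 8.94 and 11 TPM on cedar, 3.23, 4.92 and 6.07 TPM on cellulose, and 4.0, 3.74 and 3.99 TPM on glucose. The cellulose libraries lay on both sides of the glucose libraries, and the cedar libraries above all of them. Its log2 fold change was 1.30 (SE 0.116, adjusted p = 8.55e-05) on cedar and 0.21 (95% interval -0.30 to 0.73, adjusted p = 0.443) on cellulose.

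Glotr_120265 had the lowest coefficient of variation of the 9 genes on cellulose, 4.36%, and on glucose, 2.16%, and 10.3% on cedar. It had 15.9, 13.1 and 15.7 TPM on cedar, 21.9, 21.3 and 23.2 TPM on cellulose, and 9.92, 9.62 and 10.03 TPM on glucose. The carbon sources were fully separated, with cellulose highest. On cellulose its log2 fold change was 1.13 (SE 0.105, adjusted p = 0.000244) and the call held whichever library was left out. On cedar its log2 fold change of 0.57 passed the threshold on the adjusted p (0.00258), and the gene was not called because the ratio of means was 1.51.

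Glotr_80540 was the gene among the 9 that was downregulated on cedar and upregulated on cellulose. It had 10.3, 6.91 and 9.97 TPM on cedar, 62.0, 82.5 and 60.7 TPM on cellulose, and 27.5, 31.9 and 19.7 TPM on glucose. Here too no libraries of different carbon sources overlapped, with glucose between the substrates. The gene was the second most abundant of the 9 on glucose and the least abundant on cedar. Its log2 fold change was -1.48 (SE 0.217, adjusted p = 0.000917) on cedar, with a ratio of 0.344, and 1.37 (SE 0.215, adjusted p = 0.00228) on cellulose, with a ratio of 2.59. Both calls held with any 1 library left out, except that on cellulose without glucose replicate 1 (1.42, adjusted p = 0.0105).

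The values on cellulose depend on how the libraries are put on a common scale. Median-of-ratios scaling, which divides each library by a median ratio over gene models, left 7 of the 9 genes upregulated, as did quantile normalization. With every library rescaled to the same total TPM, all gene models together moved to a median of -1.09 on cellulose, and 3 of the 9 genes remained upregulated, namely Glotr_82487 (2.65), Glotr_109397 (1.49) and Glotr_139690 (1.79). In that scaling Glotr_130589 was at 0.02, Glotr_120265 at 0.00, Glotr_80540 at 0.22, Glotr_63039 at -0.16 and Glotr_70090 at -0.82. Without a filter on low values, Glotr_82487, Glotr_89774, Glotr_109397 and Glotr_130589 lost their calls on cellulose, at adjusted p from 0.0104 to 0.0308. Relative to the median of all gene models, Glotr_130589, Glotr_120265, Glotr_80540, Glotr_63039 and Glotr_70090 (in that order) were 1.22, 1.21, 1.46, 1.05 and 0.30 higher as deposited and 1.11, 1.10, 1.32, 0.93 and 0.27 higher at the same total.

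**Figure D2:**
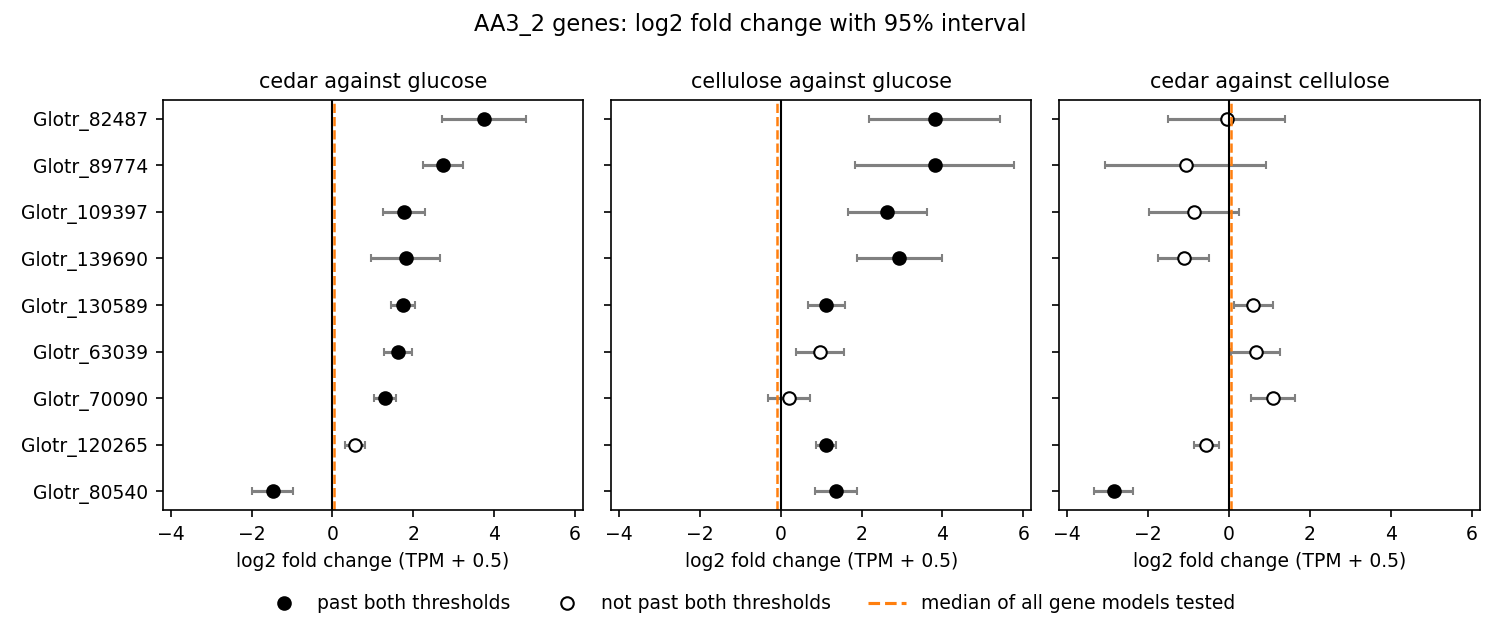
Log2 fold change of log2(TPM + 0.5) of the 9 AA3_2 genes with its 95% interval, for cedar against glucose, cellulose against glucose and cedar against cellulose, with filled points past both thresholds and a dashed line at the median of all gene models tested. Glotr_80540 is the gene past both thresholds in all panels, at -1.48, 1.37 and -2.85.

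Cedar and cellulose were then compared with each other in the same libraries. The study had called Glotr_80540 and Glotr_120265 upregulated on cellulose only, and Glotr_63039 and Glotr_70090 on cedar only. The direction of these genes in this contrast is therefore not independent of how they came to be listed. Of the 9 genes, none was called higher and 1 was called lower on cedar by limma, where the shares of all 10503 gene models tested were 10.7% and 5.95%. At an unadjusted p under 0.05, 3 of the 9 genes were higher and 3 lower on cedar. The share of all gene models at that threshold was not computed, so these numbers too have no background. At the stricter threshold of an adjusted p under 0.01, 22.0% of all gene models passed, higher and lower together. The gene called was Glotr_80540, at 9.08 ± 1.88 TPM on cedar and 68.4 ± 12.2 TPM on cellulose (SD, n = 3 each), a ratio of 0.133. Its log2 fold change was -2.85 (SE 0.204, adjusted p = 0.000600), from -2.95 to -2.68 with 1 library left out, and the call held in every alternative run, at -1.89 with the same total TPM. The cedar and cellulose libraries did not overlap in 6 of the 9 genes, as in 57.3% of all gene models.

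Glotr_70090 was higher on cedar by 1.09 (SE 0.228), with a ratio of 2.20, and its adjusted p of 0.01001 fell just short. Without cellulose replicate 3 it was called, at 1.27 (adjusted p = 0.00423). Glotr_139690 had -1.12 (SE 0.261, adjusted p = 0.0144) and was likewise called lower on cedar without cellulose replicate 3, at -1.35 (adjusted p = 0.00415). The log2 fold changes of Glotr_130589 at 0.60, Glotr_63039 at 0.66 and Glotr_120265 at -0.56 had adjusted p of 0.05, 0.0739 and 0.0135, and that of Glotr_120265 was positive with the same total TPM, at 0.39. Glotr_130589, Glotr_63039 and Glotr_70090 were called higher on cedar in that scaling. For the most abundant gene, Glotr_82487, the difference was -0.06 with a 95% interval of -1.51 to 1.39 (adjusted p = 0.945). That interval covers a change of more than 2-fold in either direction, so the libraries do not show that its level was the same on cedar and cellulose. The intervals of Glotr_89774, -3.05 to 0.91 around -1.07, and of Glotr_109397, -1.97 to 0.24 around -0.86, likewise include 0.

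The spread within a carbon source is described for 2 libraries that were singled out after seeing the data. The shares of gene models with a larger excess are therefore a description and no independent evidence. Cellulose replicate 3 and cedar replicate 2 were the highest libraries of their carbon source for Glotr_82487, Glotr_89774 and Glotr_109397. In cellulose replicate 3 these genes were at 4.02, 7.94 and 2.92 times the geometric mean (of TPM + 0.5) of the other 2 cellulose libraries, and in cedar replicate 2 they were 1.72, 1.56 and 1.74 times that of the other 2 cedar libraries. Between 0.311% and 1.89% of gene models had a larger excess in cellulose replicate 3, and between 1.69% and 2.75% in cedar replicate 2. The same 2 libraries were the lowest for Glotr_130589, at 0.662 and 0.846 times the others, for Glotr_63039, at 0.571 and 0.776 times, and for Glotr_80540, at 0.849 and 0.696 times. Glotr_139690, Glotr_70090 and Glotr_120265 had neither pattern. Over all 10607 gene models compared, 20.1% were highest in both libraries and 23.6% lowest in both, so the number of the 9 genes in each class, 3 and 3, is read against those shares. With both libraries left out, Glotr_139690 was called lower on cedar than on cellulose, at -1.37, and Glotr_70090 higher, at 1.37. The labels give these libraries the same culture age and extraction kit as the others, and what sets them apart was not tested.

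**Figure D3:**
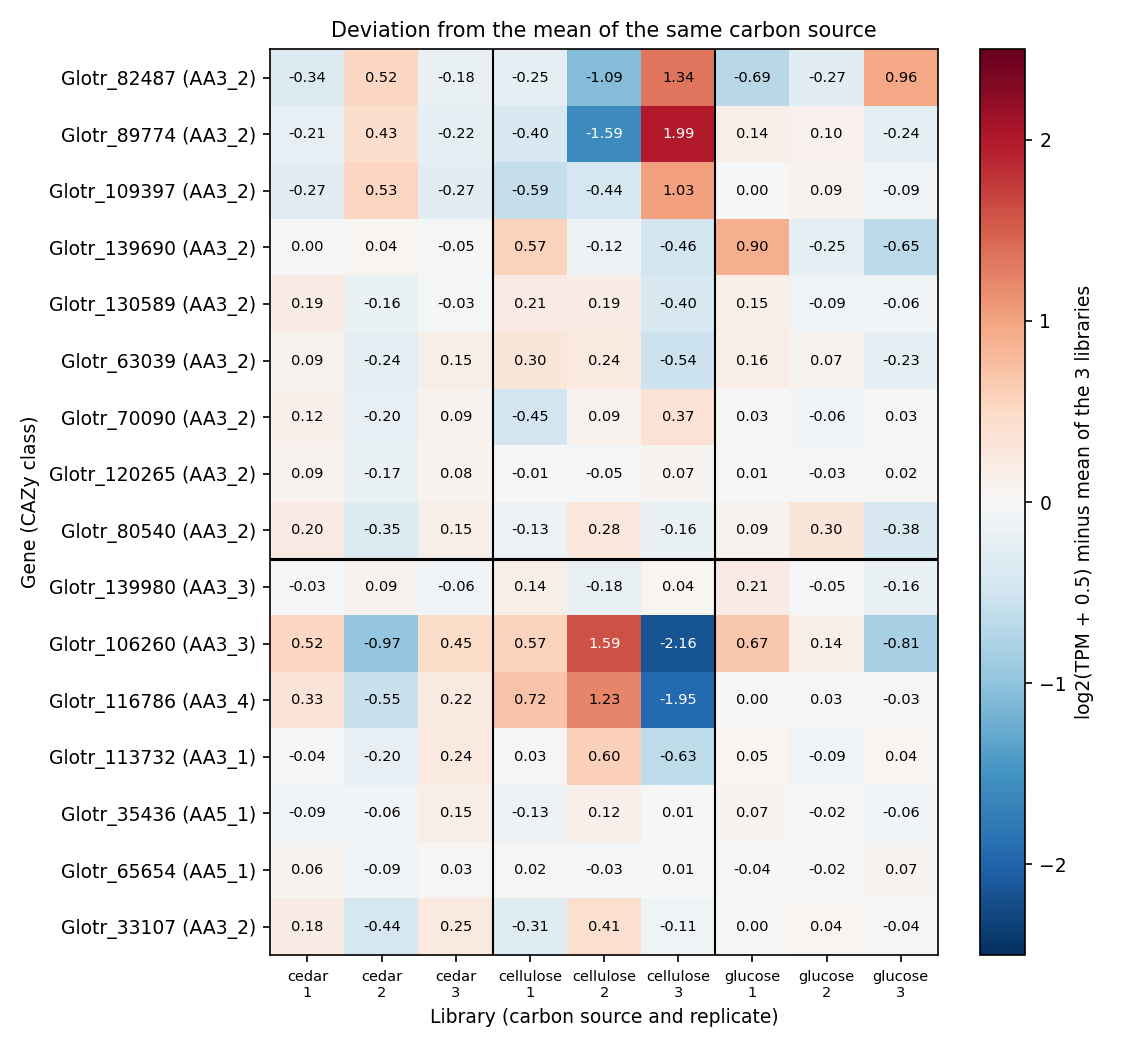
Deviation of log2(TPM + 0.5) of each gene in each library from the mean of the 3 libraries of its carbon source, for the 9 AA3_2 genes above the line and the other oxidase genes and 1 AA3_2 gene outside the list below it, with red above and blue below the mean. In cellulose replicate 3, Glotr_89774 lies 1.99 above the mean and Glotr_106260 2.16 below it.

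The 9 genes together held 988, 1630 and 1073 TPM on cedar, 1269, 857 and 3105 TPM on cellulose, and 163, 164 and 221 TPM on glucose. All libraries on the substrates were above those on glucose, and the sum was largest in cellulose replicate 3 and in cedar replicate 2. The difference of the mean log2 sum was 2.73 between cedar and glucose and 3.05 between cellulose and glucose (exact permutation test, two-sided, p = 0.1 each, adjusted p = 0.15 over 3 comparisons, the smallest p that 3 libraries against 3 allow being 0.1). The genes were listed because the study called them upregulated in these same libraries. The comparisons of their sum with glucose are therefore a description and no independent evidence. Between cedar and cellulose the difference of the mean log2 sum was -0.32 (exact p = 0.7, adjusted p = 0.7), and without cellulose replicate 3 its sign was reversed, at 0.20. The 9 genes made up 0.153% ± 0.0665 of all TPM on cedar, 0.106% ± 0.0702 on cellulose and 0.0251% ± 0.00642 on glucose (SD, n = 3 each).

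Within this sum, Glotr_82487 took 74.9%, 82.6% and 77.5% in the cedar libraries, 64.7%, 53.8% and 79.8% in the cellulose libraries and 26.3%, 35.2% and 61.3% in the glucose libraries. A share within a library does not change when the whole library is multiplied by 1 factor. Quantile normalization is not such a scaling, and the shares were not computed under it. The cedar libraries were above all glucose libraries, by 37.4 percentage points in the mean (exact permutation test, p = 0.1, adjusted p = 0.18 over 27 comparisons), while cellulose overlapped both, with a mean difference of 12.2 points for cedar against cellulose (exact p = 0.3) and 25.2 points for cellulose against glucose (exact p = 0.2). The share of Glotr_80540 was lowest on cedar, at 0.80% ± 0.331, against 5.49% ± 3.87 on cellulose and 15.1% ± 5.49 on glucose (SD, n = 3 each). The difference of cedar was -4.69 points from cellulose and -14.3 points from glucose (exact permutation test, p = 0.1 each, adjusted p = 0.18). With 27 comparisons and a smallest p of 0.1, no difference of shares could pass a threshold of 0.05.

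**Figure D4:**
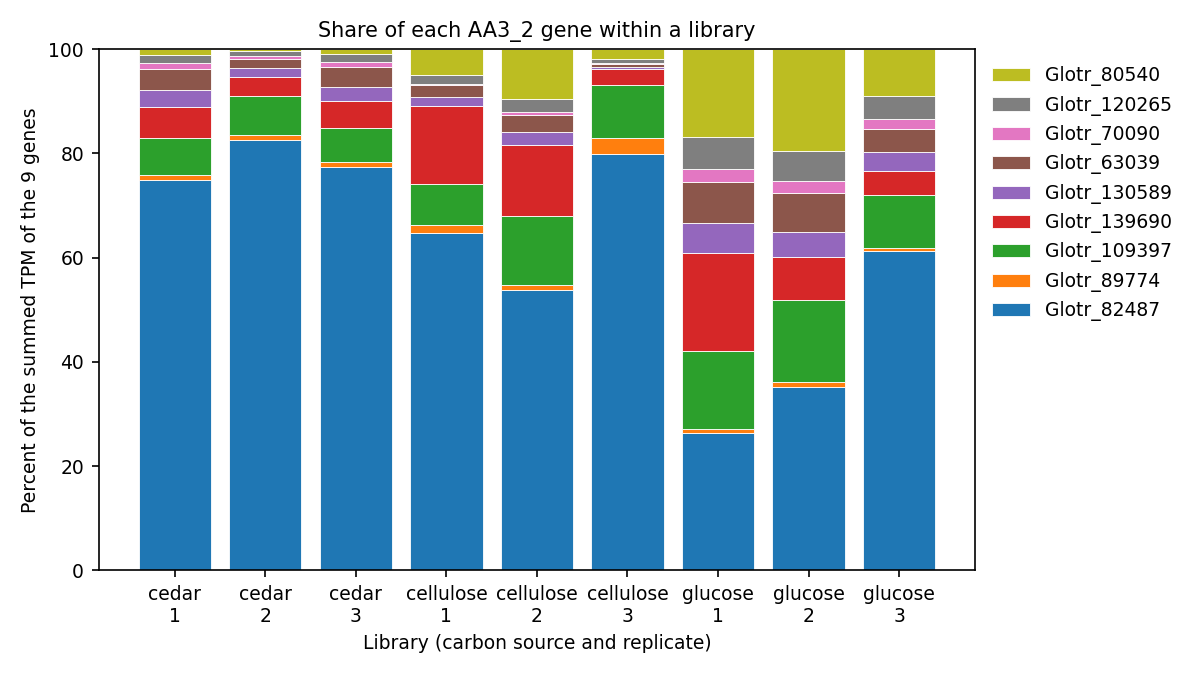
Share of each AA3_2 gene in the summed TPM of the 9 genes, in percent from 0 to 100, with 1 bar for each library in the order cedar, cellulose, glucose. Glotr_82487 takes 74.9% to 82.6% of the sum on cedar, 53.8% to 79.8% on cellulose and 26.3% to 61.3% on glucose.

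Below Glotr_82487, the order of the genes differed between the carbon sources. On cedar it ran through Glotr_109397 (87.4 ± 30.1 TPM), Glotr_139690 (58.1 ± 1.91), Glotr_63039 (37.1 ± 5.32), Glotr_130589 (28.9 ± 3.68), Glotr_120265 (14.9 ± 1.53), Glotr_89774 (11.6 ± 3.31) and Glotr_70090 (10.4 ± 1.28) to Glotr_80540 (SD, n = 3). Glotr_63039 and Glotr_130589 overlapped there, as did each neighbouring pair from Glotr_120265 down. On cellulose Glotr_109397 (177 ± 120 TPM) and Glotr_139690 (133 ± 50.3) overlapped, and so did each neighbouring pair among Glotr_80540, Glotr_89774, Glotr_63039, Glotr_120265 and Glotr_130589, while Glotr_70090 (4.74 ± 1.43) was below all others. On glucose, each neighbouring pair among Glotr_80540, Glotr_109397, Glotr_139690, Glotr_63039 and Glotr_120265 overlapped, whereas Glotr_130589 (8.33 ± 0.835), Glotr_70090 (3.91 ± 0.145) and Glotr_89774 (1.29 ± 0.247) followed without overlap.

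Of 6 other oxidases that the study lists, 3 were upregulated on cedar and 3 on cellulose, beside 15.2% and 10.4% of all gene models tested. These genes are listed by the study whether or not it called them upregulated. Glotr_139980, an AA3_3 alcohol oxidase of the kind that oxidizes methanol, had 8979, 9744 and 8781 TPM on cedar, 8348, 6697 and 7825 TPM on cellulose, and 44.7, 37.5 and 34.6 TPM on glucose. In each library on cedar or cellulose this single gene was more abundant than the 9 AA3_2 genes together, and on glucose less. Its log2 fold change was 7.87 on cedar (adjusted p = 1.61e-07) and 7.60 on cellulose (adjusted p = 2.09e-06), above that of any of the 9 genes. Glotr_116786, an AA3_4 pyranose 2-oxidase, had 1.59 (adjusted p = 0.000784) on cedar, not called with all 3 carbon sources in 1 fit (adjusted p = 0.0785), and 3.84 (adjusted p = 0.00618) on cellulose. On cellulose its call was lost whenever a library other than cellulose replicate 3 was left out, with adjusted p between 0.0174 and 0.0253, with the same total TPM (adjusted p = 0.0106) and without a filter on low values (adjusted p = 0.0239). Glotr_113732, an AA3_1 cellobiose dehydrogenase, which oxidizes cellobiose, had 2.52 (adjusted p = 9.22e-06) on cedar and 1.56 (adjusted p = 0.00527) on cellulose, where it was lost without glucose replicate 1, 2 or 3 or cellulose replicate 1, with values from 1.52 to 1.59, without a filter, with the block and with either rescaled total (0.61 and 1.0). The other AA3_3 gene, Glotr_106260, and the AA5_1 copper-radical oxidases Glotr_35436 and Glotr_65654 were not called against glucose.

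Of the 6 other oxidases, Glotr_106260, Glotr_116786 and Glotr_113732 were lowest in both cellulose replicate 3 and cedar replicate 2, at 0.106, 0.132 and 0.520 times the other cellulose libraries and 0.365, 0.567 and 0.814 times the other cedar libraries. Of all gene models compared, 23.6% were lowest in both. Glotr_106260 had low values there, 0.720 and 1.27 TPM. These 2 libraries, singled out after seeing the data, were those in which Glotr_82487, Glotr_89774 and Glotr_109397 were highest. Glotr_65654 resembled Glotr_80540 in the direct comparison. Glotr_65654 had 147, 132 and 143 TPM on cedar and 343, 331 and 339 TPM on cellulose, and was called lower on cedar at -1.26 (adjusted p = 0.00125), a call lost without cedar replicate 3 (-1.27, adjusted p = 0.0120), with the same total TPM (-0.28, or -0.52 without the 2 highest gene models), with quantile normalization (-0.52) and with the replicate number as a block (adjusted p = 0.0131). An AA3_2 gene that is not among the 9, Glotr_33107, had 1.69, 0.927 and 1.80 TPM on cedar, 0.235, 0.712 and 0.346 TPM on cellulose, and 1.79, 1.86 and 1.73 TPM on glucose. It was downregulated on cellulose at -1.33 (adjusted p = 0.00231), a call lost without glucose replicate 1 (-1.33), 2 (-1.31) or 3 (-1.35), and had -0.25 (adjusted p = 0.298) on cedar. The family annotation available here covered 1734 of the 11846 gene models, so further AA3_2 genes outside the 9 may have been missed.

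For each of the 9 genes, the gene model with the most similar pattern was taken as the one with the highest Pearson correlation of log2(TPM + 0.5) over the 9 libraries, among 10606 others. The libraries fall into 3 carbon sources, so a high coefficient mainly reflects levels by carbon source, and it is given as a description. The nearest gene models were Glotr_57044 for Glotr_82487 (0.985), Glotr_99857 for Glotr_89774 (0.985), Glotr_140953 for Glotr_109397 (0.992), Glotr_136172 for Glotr_139690 (0.987), Glotr_43584 for Glotr_130589 (0.989), Glotr_137373 for Glotr_63039 (0.997), Glotr_111870 for Glotr_70090 (0.991), Glotr_114568 for Glotr_120265 (0.996) and Glotr_113172 for Glotr_80540 (0.992). Among the 9 genes themselves, the closest were Glotr_63039 and Glotr_130589 (0.982), each within the 9 nearest gene models of the other, and Glotr_89774 and Glotr_109397 (0.973). Glotr_80540 stood farthest from the others, its closest match among them being Glotr_120265 (0.471), at place 2389 among all gene models compared.

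All 9 genes were found in the RefSeq annotation of the genome assembly Glotr1_1, where they span 2430 to 3324 bases. Its table gives positions without scaffold names, so only distances are given, within stretches where the positions run on without a restart. Glotr_139690 and Glotr_63039 lay 36544 bases apart with 10 gene models between them, of which 3 were upregulated on cedar and 2 on cellulose, where 15.2% and 10.4% of all gene models tested were. Glotr_130589 and the pyranose 2-oxidase gene Glotr_116786 lay 73892 bases apart with 29 gene models between them. Of the 18 gene models that flank the 9 genes, 5 were upregulated and 1 downregulated on cedar, beside 15.2% and 15.7% of all gene models tested, and 3 were upregulated on cellulose, beside 10.4%. None of the 9 genes directly adjoined another of them.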

How the data were processed

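RNA from the mycelium was sequenced from stranded mRNA libraries, 3 for each carbon source, as the labels give. The authors assigned reads to the JGI gene models with Kallisto 0.44.0 and normalized TPM between libraries with Sleuth 0.29.0. The deposited signal is thus rescaled TPM, whose columns have no common total. The planned test for TPM was kept. Kallisto shares reads between near-identical genes by estimation, so values of close paralogs are uncertain.

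Each pair of carbon sources was fitted with limma 3.58.1 (lmFit, eBayes with trend) in R 4.3.3, without covariates, over gene models that reached 0.1 TPM in 3 or more of the 6 libraries. In data simulated for cedar against glucose, the fit recovered 43.5% of 200 genes changed 2-fold among 10558, 88.0% at 4-fold among 10563 and 94.0% at 8-fold among 10559. The false calls numbered 1, 3 and 0. Genes changed 2-fold lie at the ratio that a call requires, so the 43.5% also reflects that threshold. The simulated noise was normal, and the changed genes, up or down at random, were drawn above a floor on their glucose values. In the data 1601 gene models were upregulated and 1660 downregulated on cedar, more than the 200 changed here. The comparisons with cellulose were not simulated, so these figures do not describe them. Sums and shares were compared by exact permutation in SciPy 1.17.1. Other tools were Python 3.11.15, pandas 2.3.3, NumPy 2.4.6 and matplotlib 3.10.9. The alternatives were added values of 0.1 and 1, no filter or one of 1 TPM, 3 other scalings, no trend, all carbon sources in 1 fit, a replicate block, an adjusted p under 0.05 and leaving out libraries. A scaling without the 2 highest gene models and leaving out cellulose replicate 3 and cedar replicate 2 together were chosen after seeing the data.

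The genes named were the 9 AA3_2 genes, the other oxidases on the study's list, Glotr_33107, the gene model nearest in pattern to each of the 9, and flanking genes as counts. Members and lists were chosen with earlier results of these data known. A wider list of GMC genes by product name, and protein and promoter sequences, were not used here. Of the 11846 gene models, 11422 matched the RefSeq table.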

Additional observations from a re-analysis of the deposited data

Results flagged for a closer look

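Glotr_80540 changed differently on the substrates, being downregulated against glucose on cedar (-1.48) and upregulated on cellulose (1.37). The difference itself, tested as cedar against cellulose, was -2.85 (limma, adjusted p = 0.000600), and all 3 cedar libraries were below all 3 cellulose libraries. The study had listed the gene for its rise on cellulose in these same libraries, so the direction of this difference is no independent evidence. The fall on cedar held in every alternative, at -1.67 with the same total TPM, while the rise on cellulose was not called with that total (0.22) or without glucose replicate 1 (1.42).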

How the results depend on the processing

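On cellulose against glucose, 7 of the 9 genes were called upregulated, and also 7 with median-of-ratios scaling and with quantile normalization. The number was 3 without a filter, 3 with the same total TPM and 4 with that total taken without the 2 highest gene models. With 1 library left out it was 2 to 8. Over all gene models, the same total gave 353 upregulated and 5934 downregulated there, and without the 2 highest gene models 551 and 3568. Glotr_63039 then had -0.16, and Glotr_70090 -0.82 and -0.39.

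On cedar against cellulose, 1 of the 9 genes was called higher with an added value of 1, a filter of 1 TPM, all carbon sources in 1 fit, an adjusted p under 0.05 or cellulose replicate 3 and cedar replicate 2 left out together, and 3 with either total. The number called lower was 2 with an adjusted p under 0.05 and with those libraries left out together. With 1 library left out, 0 to 1 were higher and 1 to 2 lower. All gene models called higher numbered 4897 with the same total, 3523 without the 2 highest, 707 with quantile normalization and 287 to 1232 with 1 library left out, against 1124. Those called lower numbered 141, 177, 382 without a filter and 149 to 819, against 625. Glotr_82487 turned positive with the same total (0.92), without the 2 highest (0.68), with quantile normalization (1.01) and with both libraries left out (0.35), and ran from -0.60 to 0.61 with 1 library left out. Glotr_109397 was at 0.11 and Glotr_120265 at 0.39 with the same total, and Glotr_120265 at 0.16 without the 2 highest. The log2 sum of the 9 genes was at 0.66 with the same total and 0.58 with quantile normalization, and from -0.73 to 0.20 with 1 library left out.

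The deviations of same-numbered libraries had correlations from -0.39 to 0.18, and those of differently numbered libraries from -0.34 to 0.38. With 3 libraries for each carbon source, these values cannot show whether libraries of the same number were handled together. With the replicate number as a block, 285 gene models were higher and 127 lower on cedar than on cellulose, against 1124 and 625 without it. The counts of the 9 genes in each comparison were the same with the block, and on cellulose Glotr_63039 was called in place of Glotr_89774. In no comparison did every library correlate best with its own number.

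Of the shares, taken over the sum without Glotr_82487, those of Glotr_109397 were higher by 9.70 points on cedar and 10.2 on cellulose than on glucose, those of Glotr_139690 by 5.95 and 12.2, and on cedar those of Glotr_130589 by 3.22, Glotr_63039 by 3.27 and Glotr_70090 by 0.248. That of Glotr_120265 was 1.18 points higher on cedar than on cellulose. With 1 library left out, the share of Glotr_139690 on cellulose against glucose ran from -2.99 to 4.11 points and that of Glotr_120265 on cedar against cellulose from -0.817 to 0.0534.

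The cause of these changes was not tested. Of the log2 fold changes of single genes, 428 values under an alternative kept their direction and side of the threshold, 35 lost a call, 19 gained one and 13 changed sign. With 3 libraries for each carbon source, no read counts and a higher total on cellulose, small changes there cannot be told apart from the choice of scale.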
